A study of Mus musculus with 6 samples.

Results

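Ribosome biogenesis genes encode the nucleolar machinery that makes ribosomes. The genes described here are 45 mouse genes chosen by name: subunits and factors of RNA polymerase I, the proteins of the small nucleolar ribonucleoproteins (snoRNPs), assembly factors of the small and large ribosomal subunits, and nucleolar proteins with several roles. All 45 were found by symbol among the 53599 genes of the count table. Hepatocytes that received Sox4 were compared with control hepatocytes to ask how these genes differed 4 days after the virus was given.

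In the nucleolus, RNA polymerase I copies the ribosomal DNA into a long precursor RNA. SnoRNPs of the box C/D class add methyl groups to the ribose of this precursor, and those of the box H/ACA class turn chosen uridines into pseudouridines, while assembly factors cut and fold it onto ribosomal proteins to form the small and the large subunit. In liver, this pathway is known for its rise when hepatocytes re-enter the cell cycle during regeneration, and the transcription factor MYC is a well known activator of many of its genes.

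There were 2 groups of 3 libraries. The Sox4 group received AAV8-TBG-HA-Sox4-P2A-Cre, an adeno-associated virus in which the TBG promoter, active in hepatocytes, drives HA-tagged Sox4 joined to Cre recombinase by a self-cleaving peptide. The control group, named EV for empty vector, received AAV8-TBG-Cre. The labels give the EV genotype as WT and the Sox4 genotype as Sox4, and per the study's methods all mice were male homozygous Rosa-LSL-Cas9-EGFP animals on C57BL/6J, so that Cre switched on Cas9 and EGFP in the hepatocytes of both groups and the WT label does not mean animals without a transgene. Hepatocytes were released with liberase and enriched on Percoll 4 days post injection (dpi), with no sorting for EGFP stated for these libraries. Age is not in the labels, and the methods give young mice of a few weeks for the delivery of Sox4. Virus dose is stated there for the Sox4 RNA-seq mice, and whether the EV mice of this experiment had the same dose was not given in the sources used here. Each group is stated to hold 3 animals.

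Total counts per library were 15090629 to 16964860. The number of genes with at least 1 count was 17025 to 17525 in EV libraries and 19049 to 19515 in Sox4 libraries. The EV libraries held 2, 0 and 3 Sox4 counts, and the Sox4 libraries 21697, 15097 and 11816, which matches their labels. Of 10 hepatocyte markers, 7 were lower and none higher in Sox4. Their summed level in CPM (counts scaled to a library of 1e06) was 148155 to 174314 in EV and 100611 to 113355 in Sox4. The summed level of 8 Kupffer cell markers rose from 9.86 to 23.7 CPM in EV to 23.7 to 59.6 CPM in Sox4 (3 of 7 tested were higher, Clec4f among those not past the threshold), that of 8 stellate markers from 8.40 to 44.7 to 77.7 to 138 CPM (2 of 3 tested, chiefly Reln), and that of 8 cholangiocyte markers from 27.7 to 43.8 to 72.0 to 85.0 CPM (2 of 4 tested, with Krt19 and Krt7 at 0 in EV). Summed endothelial markers were at 19.3 to 31.2 CPM and 15.8 to 37.5 CPM (2 higher and 1 lower of 8), lymphoid and neutrophil markers at no more than 4.29 CPM in any library with Ms4a1 and Ly6g at 0 (0 of 1 tested called), and erythroid markers at 93.0 to 126 CPM against 4.97 to 15.5 CPM (Alas2, the 1 tested, was lower). The part of these other cells in the values below was not tested, and in bulk RNA fewer cells of a type and less RNA per cell cannot be told apart.

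About as many of the 45 genes passed the test as of all genes, and more of those that passed were higher in Sox4 than lower. Each had between 46 and 3585 counts in every library and passed the filter on low counts. In the Sox4 libraries 18 of them were higher and 5 (11.1%) were lower at an adjusted p under 0.05 (edgeR quasi-likelihood test, Benjamini-Hochberg over all 12691 genes tested), and 22 did not pass. Over all genes tested, 29.0% were higher and 26.0% lower (55.1% in all). The share of members that were called, 51.1%, was thus near that of all genes, and the lower calls were fewer. The median log2 fold change was 0.28 over the members and 0.04 over all genes, and 31 of 45 members lay above the median of all genes. None of the members was higher by 2-fold or more, a size reached upward by 16.5% of all genes. Nop10 alone was lower by 2-fold or more, which 11.9% of all genes were. All 3 Sox4 libraries lay above all 3 EV libraries for 22 members (33.1% of all genes), and below them for 6 members (29.9% of all genes).

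**Figure D1:**
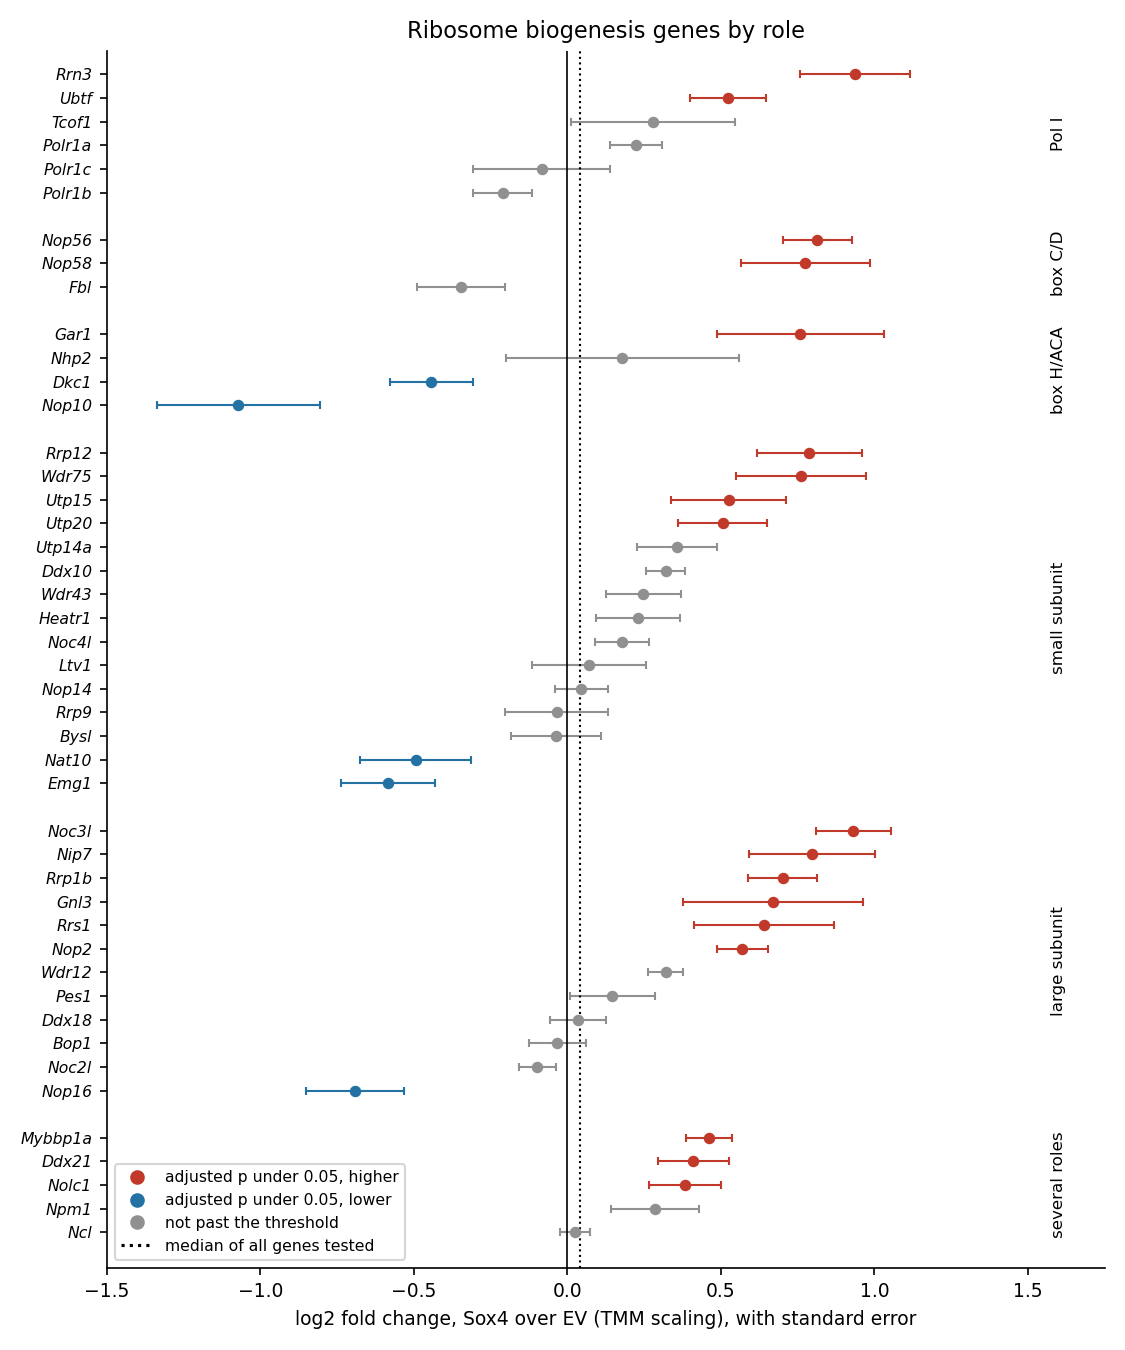
Log2 fold change of each of the 45 genes in Sox4 over EV (n = 3 libraries per group, TMM scaling) with its standard error, grouped by role; red and blue mark genes higher and lower at an adjusted p under 0.05, grey those not past the threshold. The members run from -1.07 (Nop10) to 0.94 (Rrn3), and every role group but the nucleolar proteins with several roles has members on both sides of 0.

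These counts rest on TMM scaling, which assumes that most genes do not change. The scaled library size was 1.48 times larger in Sox4 than in EV, while total counts were 1.07 times larger. With library size alone the median of all genes moved from 0.04 to 0.51, 35 members were higher and 1 lower, and 51.0% of all genes were higher and 12.8% lower. A scaling of this kind shifts every gene by nearly the same amount and leaves the distance of 0.24 between the median of the members and that of all genes as it is, so statements on direction below are relative to the bulk of genes. With no filter on low counts, which adds many weakly expressed genes to the comparison, this distance was 0.089 and 26 of 45 members lay above the median of all genes.

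Of the 6 genes of RNA polymerase I transcription, Rrn3 and Ubtf were higher, none was lower, and the 3 polymerase subunits and Tcof1 did not pass. This is 33.3% higher, near the 29.0% of all genes, with a median log2 fold change of 0.25. Rrn3, the initiation factor that brings the polymerase to the promoter complex, was at 20.0, 26.7 and 30.1 CPM in EV 1 to 3 and at 49.2, 51.5 and 46.6 CPM in Sox4 1 to 3. All Sox4 libraries lay above all EV libraries, and the rise was the largest of the 45 genes (log2 fold change 0.94, SE 0.18, adjusted p = 0.000572, edgeR). Ubtf, which binds along the ribosomal DNA and keeps it open, was at 53.9, 58.2 and 48.7 CPM in EV and 84.7, 67.0 and 79.4 CPM in Sox4. The groups did not overlap (0.52, SE 0.12, adjusted p = 0.00548). Both calls held under each of the 15 alternative analyses.

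Polr1a, the largest subunit and part of the catalytic centre of the polymerase, was at 25.7, 24.3 and 28.2 CPM in EV and 32.8, 29.9 and 28.6 CPM in Sox4. Its Sox4 libraries all lay above EV, but by little (0.22, SE 0.09, adjusted p = 0.141). Polr1b, the partner of Polr1a in the catalytic centre, had a log2 fold change of -0.21 (adjusted p = 0.204), and Polr1c, a subunit shared with RNA polymerase III, one of -0.08 (adjusted p = 0.73). Polr1c ran from -0.26 to 0.05 when libraries were left out in turn, changing sign without EV 2 or Sox4 2. Tcof1, which encodes treacle, a scaffold that holds the polymerase and UBF at the ribosomal DNA, was at 13.8 CPM in Sox4 1 but at 8.63 and 7.96 CPM in Sox4 2 and 3, within the EV range of 7.19 to 9.17 CPM (0.28, SE 0.27). Without Sox4 1 its value was -0.015.

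The stretch before the start of Rrn3 is shown because it was 1 of only 2 members' promoters that held the letters CACGTG, the E-box to which MYC and MAX bind. It lies at chr16:13780449-13780696 on the plus strand (GRCm38.p6, RefSeq), reads 5′ to 3′ with the E-boxes in capitals, and holds 2 of them, starting 215 and 48 bases before the annotated start.
Rrn3: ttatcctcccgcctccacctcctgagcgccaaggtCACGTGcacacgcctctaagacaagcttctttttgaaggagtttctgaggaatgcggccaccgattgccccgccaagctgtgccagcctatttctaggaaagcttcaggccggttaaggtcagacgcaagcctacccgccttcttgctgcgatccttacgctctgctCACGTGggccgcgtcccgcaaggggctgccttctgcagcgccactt

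In the box C/D snoRNP, the paired scaffold proteins Nop56 and Nop58 both rose, and Fbl, which encodes the methyltransferase fibrillarin, did not pass the test. Nop56 was at 15.1, 16.1 and 18.1 CPM in EV and 29.3, 25.9 and 31.5 CPM in Sox4. The groups were well apart (0.81, SE 0.11, adjusted p = 0.000713). Nop58 was at 16.0, 15.7 and 23.8 CPM in EV and 28.4, 33.3 and 33.5 CPM in Sox4. EV 3 was the highest EV library, yet below every Sox4 library (0.78, SE 0.21, adjusted p = 0.00412). Fbl was at 26.0, 25.2 and 24.1 CPM in EV and 23.6, 18.7 and 16.9 CPM in Sox4. Every Sox4 library lay below EV, but the test was not passed (-0.35, SE 0.14, adjusted p = 0.0707). It was passed without Sox4 1 (-0.50, adjusted p = 0.00925) and with the replicate number as a block (-0.36, adjusted p = 0.0364), and the sign turned with library size alone (0.12).

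Ratios of raw counts within a library do not depend on scaling, and were formed for pairs of partners after their values had been seen, so they are given as a description with no test. For a pair in which every Sox4 library of 1 gene lies above EV and every Sox4 library of the other below, the choice itself sets the groups of the ratio apart. There were 0.580, 0.639 and 0.750 Nop56 counts per Fbl count in EV and 1.24, 1.38 and 1.86 in Sox4. Nop56 and Fbl were such a pair, and the means of the ratio differed 2.28-fold. The ratio of Nop58 to Nop56 was 1.12 ± 0.177 in EV and 1.11 ± 0.161 in Sox4 (SD, n = 3), with overlapping groups. Fbl and Nop56 each share sequence with other annotated genes (19.7% and 18.6% of their 50-base stretches), so reads that could fit several places are uncertain for both. Nop56 and Nop58 also host snoRNAs in their introns, with 5 and 4 annotated in GENCODE M21.

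The box H/ACA snoRNP, which has 4 proteins and is also part of telomerase, showed the widest spread of any role group. Nop10, its smallest protein, fell more than any other member, and Dkc1, the pseudouridine synthase dyskerin, fell as well, while Gar1 rose. Nop10 was at 35.0, 32.4 and 26.7 CPM in EV and 19.5, 10.9 and 14.3 CPM in Sox4. All Sox4 libraries were below all EV libraries (-1.07, SE 0.27, adjusted p = 0.0018), and this was the only member still called lower with library size alone. Dkc1 was at 15.3, 18.1 and 20.8 CPM in EV and 12.8, 12.9 and 14.1 CPM in Sox4. The groups did not overlap but came close (-0.44, SE 0.13, adjusted p = 0.0314). The Dkc1 call was lost without EV 2, EV 3, Sox4 1 or Sox4 2 (-0.35 to -0.46, adjusted p = 0.0529 to 0.113), with upper-quartile scaling (-0.39) and with no filter (-0.40), and its sign turned with library size alone (0.03).

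Gar1 was the least abundant of the 4, at 4.39, 3.49 and 3.56 CPM in EV and 8.07, 4.44 and 6.84 CPM in Sox4. Sox4 2 lay just above EV 1, and the rise passed the test (0.76, SE 0.27, adjusted p = 0.0352). It no longer passed without EV 2, EV 3, Sox4 1 or Sox4 3 (0.56 to 0.72, adjusted p = 0.0805 to 0.115) or in limma-voom (adjusted p = 0.0616). Nhp2, the fourth protein, was at 23.8, 13.4 and 12.6 CPM in EV and 25.6, 15.7 and 15.0 CPM in Sox4. The library numbered 1 was the high one in both groups, and the groups overlapped (0.18, SE 0.38, adjusted p = 0.625), with the sign below 0 without EV 3 (-0.003) or without Sox4 1 (-0.11).

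Within each library, Gar1 had 0.126, 0.108 and 0.134 counts per Nop10 count in EV and 0.414, 0.407 and 0.479 in Sox4. The means differed 3.54-fold, for a pair chosen as the largest rise and the largest fall of the 4. The window before the Gar1 start is shown as a member that rose and held the letters CCGGAAG or their reverse complement, the core to which ETS factors bind, here in capitals 43 bases before the start (chr3:129831397-129831479, minus strand, GRCm38.p6, RefSeq).
Gar1: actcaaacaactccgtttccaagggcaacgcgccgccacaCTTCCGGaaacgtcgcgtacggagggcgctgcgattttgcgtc

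**Figure D2:**
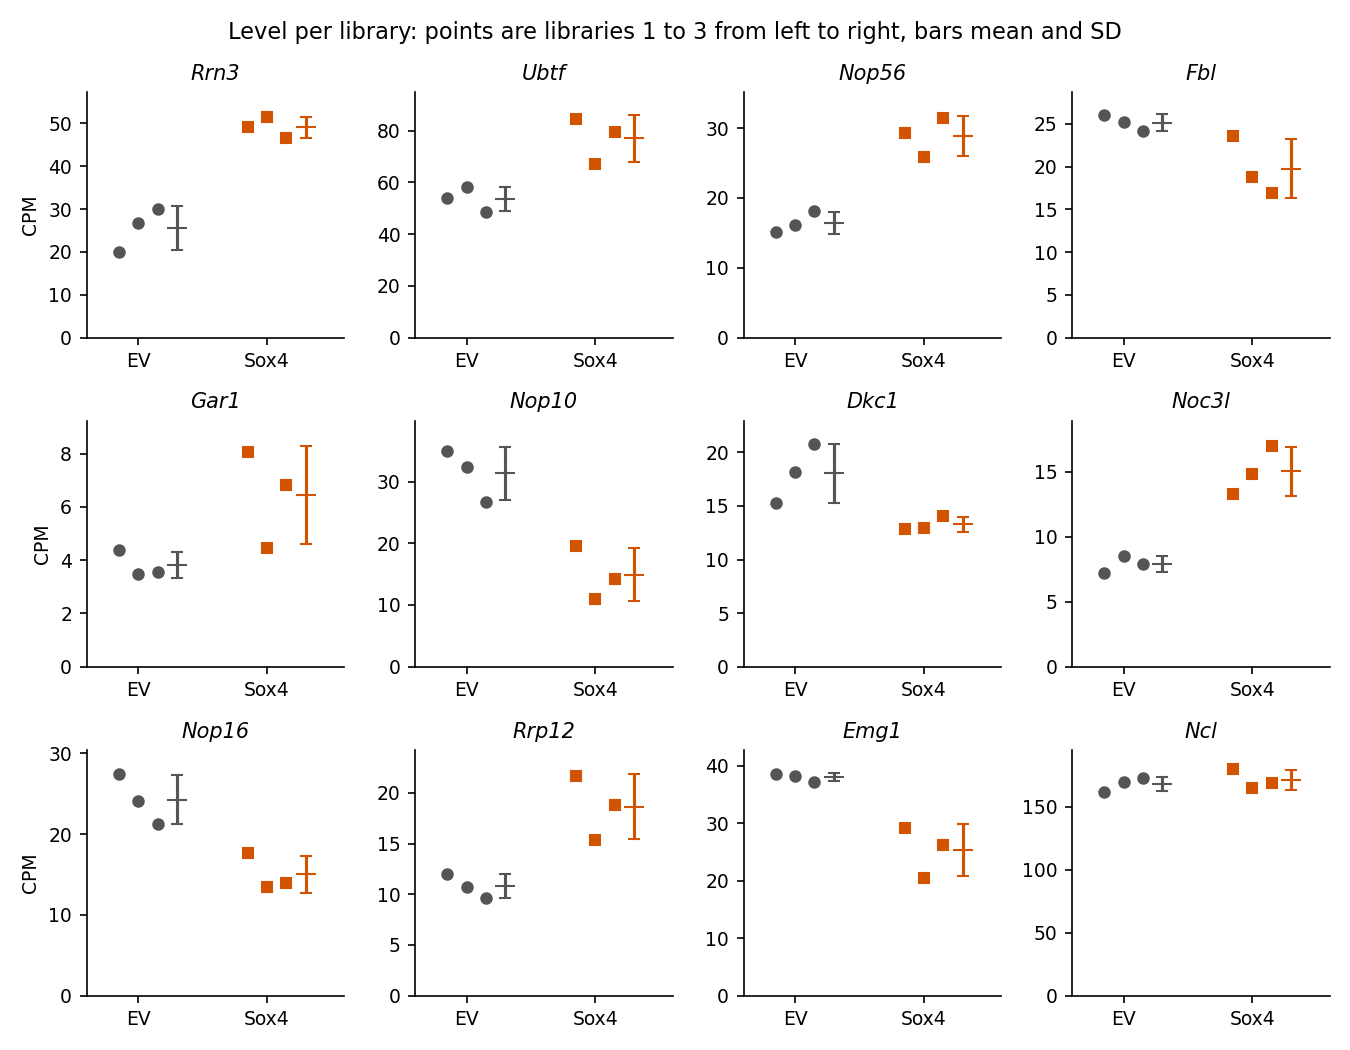
Level in CPM (TMM-scaled, linear axes from 0) of 12 of the genes in each library, with the mean and SD of the group (n = 3) beside the points. Rrn3, Ubtf, Nop56, Gar1, Noc3l and Rrp12 lie higher in every Sox4 library. Nop10, Nop16, Emg1, Dkc1 and Fbl lie lower, Fbl without passing the test, and Ncl overlaps between 162 and 180 CPM.

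Of the 15 small subunit assembly factors, 4 were higher (26.7%), 2 lower (13.3%) and 9 did not pass, with a median of 0.23. The share higher was near the 29.0% of all genes, and 26.0% of all genes were lower. Rrp12, which acts in the late maturation and export of the small subunit precursor, was at 12.02, 10.7 and 9.66 CPM in EV and 21.7, 15.3 and 18.9 CPM in Sox4. The groups were clearly apart (0.79, SE 0.17, adjusted p = 0.00322). Utp20, a very large protein of the processome that first packs the precursor RNA, was at 33.1, 34.3 and 36.3 CPM in EV and 42.9, 45.6 and 58.8 CPM in Sox4. Every Sox4 library lay above EV, Sox4 3 farthest (0.51, SE 0.14, adjusted p = 0.0103).

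Wdr75, Utp15, Heatr1 and Wdr43 belong to the part of the processome that also acts in transcription of the ribosomal DNA. Wdr75 rose by 0.76 (SE 0.21, adjusted p = 0.0053), from 11.99 ± 2.78 to 20.3 ± 1.004 CPM (SD, n = 3), and Utp15 rose by 0.53 (adjusted p = 0.0288), from 10.8 ± 2.01 to 15.6 ± 1.78 CPM. Utp15 lost its call without EV 1, EV 3, Sox4 2 or Sox4 3 (0.37 to 0.56, adjusted p = 0.0527 to 0.114). Heatr1 and Wdr43 had values of 0.23 and 0.25 with adjusted p of 0.184 and 0.15. Heatr1 passed without Sox4 1 (0.35). The log2 fold changes of this complex were thus all above 0, and those of Wdr75 and Utp15 passed.

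The members that fell were both enzymes that modify the small subunit RNA. Emg1, which methylates a pseudouridine, was at 38.5, 38.3 and 37.3 CPM in EV and 29.3, 20.4 and 26.3 CPM in Sox4. The EV libraries lay close together and above all Sox4 libraries (-0.59, SE 0.15, adjusted p = 0.0061). Nat10, which acetylates cytidines, was at 26.8 ± 4.55 CPM in EV and 19.0 ± 2.38 CPM in Sox4 (SD, n = 3) without overlap (-0.49, SE 0.18, adjusted p = 0.0259). Nat10 lost its call without EV 1, EV 2 or Sox4 2 (-0.39 to -0.49, adjusted p = 0.0555 to 0.105), and both lost it with library size alone (-0.12 and -0.02). Emg1 overlaps Lpcat3 on the opposite strand over 7.21% of its exonic bases. Its promoter is shown because it was the single member that fell and held the ETS letters, 120 and 44 bases before the start (chr6:124712179-124712338, minus strand, GRCm38.p6, RefSeq).
Emg1: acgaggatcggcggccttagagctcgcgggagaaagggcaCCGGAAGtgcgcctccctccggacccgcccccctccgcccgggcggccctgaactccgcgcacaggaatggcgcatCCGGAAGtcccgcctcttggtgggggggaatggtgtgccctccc

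The other 7 small subunit factors did not pass the test. The helicase gene Ddx10 (0.32, adjusted p = 0.0586) and Utp14a (0.36, adjusted p = 0.0705) were nearest to it, and in both every Sox4 library lay above EV. Noc4l was at 0.18 and its partner Nop14 at 0.05. Rrp9, a protein of the U3 particle that guides the first cuts, and the late factors Bysl and Ltv1 were at -0.03, -0.04 and 0.07. Leaving out libraries in turn moved Rrp9 between -0.20 and 0.05, Bysl between -0.19 and 0.05, Nop14 between -0.03 and 0.09 and Ltv1 between -0.13 and 0.17, so none of these has a settled sign.

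Among the 12 large subunit assembly factors, 6 were higher, 1 was lower and 5 did not pass, with a median of 0.45. Calls in either direction made up 58.3% of this group, near the 55.1% of all genes. Lower calls made up 8.33% of it, beside 26.0% of all genes, and 29.0% of all genes were higher. Noc3l, which accompanies the large subunit precursor out of the nucleolus, was at 7.24, 8.50 and 7.92 CPM in EV and 13.3, 14.8 and 17.0 CPM in Sox4. It rose by almost as much as Rrn3, with no overlap (0.93, SE 0.12, adjusted p = 0.000902). Its binding partner Noc2l, the most abundant of the 12, was at 35.8, 38.8 and 37.0 CPM in EV and 36.3, 35.4 and 32.4 CPM in Sox4. The groups overlapped (-0.10, SE 0.06, adjusted p = 0.459), and 20.9% of the exonic bases of Noc2l are overlapped by Samd11 on the opposite strand.

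Nip7, which acts in processing of the large subunit precursor, rose by 0.80 (SE 0.21, adjusted p = 0.00646), Rrp1b by 0.70 (SE 0.11, adjusted p = 0.00521) and Nop2, a cytosine methyltransferase of the large subunit RNA, by 0.57 (SE 0.08, adjusted p = 0.00461). Nop2 was at 14.9, 16.3 and 13.5 CPM in EV and 21.4, 22.4 and 22.7 CPM in Sox4. These rises held under each of the 15 alternatives. Rrs1, which helps to install the RNA made by polymerase III, rose by 0.64 (SE 0.23, adjusted p = 0.0182), but not past the threshold without EV 1 (0.52, adjusted p = 0.0681). Gnl3, the GTPase nucleostemin known from dividing and stem cells, rose by 0.67 (SE 0.29, adjusted p = 0.028). Its groups overlapped, since EV 3 at 30.7 CPM was above Sox4 1 at 30.0 CPM, and the call was lost without EV 1, EV 2, Sox4 2 or Sox4 3 (0.47 to 0.65, adjusted p = 0.0729 to 0.0913).

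Nop16 was the member of this group that fell. It was at 27.4, 24.1 and 21.3 CPM in EV and 17.6, 13.5 and 14.0 CPM in Sox4. All Sox4 libraries lay below EV (-0.69, SE 0.16, adjusted p = 0.00443), a call lost with library size alone (-0.22, adjusted p = 0.249). Per Nop16 count there were 0.545, 0.676 and 0.635 Nop2 counts in EV and 1.21, 1.66 and 1.62 in Sox4 (2.42-fold between the means), a pair chosen because they had moved in opposite directions. 

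Bop1, Pes1 and Wdr12 form the PeBoW complex, which is needed to process the large subunit RNA, and none of them passed the test. Bop1 was at 33.6, 33.3 and 30.9 CPM in EV and 34.1, 33.4 and 28.2 CPM in Sox4, 1 of the 3 members closest to 0 (-0.03, SE 0.09). Wdr12 was at 15.3 ± 0.834 and 19.1 ± 0.805 CPM (SD, n = 3) with no overlap (0.32, SE 0.06, adjusted p = 0.0562), and Pes1 at 0.15 (adjusted p = 0.382). The Pes1 to Bop1 ratio was 0.987 ± 0.0403 in EV and 1.12 ± 0.186 in Sox4 (SD, n = 3), with overlap. The Wdr12 to Bop1 ratio was 0.438, 0.450 and 0.526 in EV and 0.534, 0.588 and 0.694 in Sox4, with the groups just apart (1.28-fold). Ddx18, an RNA helicase, was at 23.0, 24.8 and 21.0 CPM in EV and 21.7, 24.0 and 24.7 CPM in Sox4 (0.03, SE 0.09), but 55.9% of its 50-base stretches occur in other annotated genes, chiefly Gm16433, and 23.3% of those of Pes1 do. Leaving out libraries moved Bop1 from -0.09 to 0.05 and Ddx18 from -0.04 to 0.08.

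The windows of Nip7 and Nop2 are shown as those of large subunit factors that rose. The Nip7 window (chr8:107056734-107056820, plus strand, GRCm38.p6, RefSeq) has the ETS letters in capitals 103 bases before the start. The Nop2 window (chr6:125131783-125131868, plus strand) has the E-box in capitals 60 bases before the start, and it too holds the letters CCGGAAG, printed there in lower case.
Nip7: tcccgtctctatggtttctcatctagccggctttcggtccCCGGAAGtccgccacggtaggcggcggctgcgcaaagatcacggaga
Nop2: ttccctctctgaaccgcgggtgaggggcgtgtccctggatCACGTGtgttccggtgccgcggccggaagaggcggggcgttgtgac

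All 5 nucleolar proteins with several roles had log2 fold changes above 0, and 3 were higher (60.0%, beside 29.0% of all genes). The share called, 60%, was near the 55.1% of all genes. Mybbp1a, a nucleolar protein that binds MYB and acts in polymerase I transcription and processing, was at 65.7, 65.6 and 64.8 CPM in EV and 99.6, 85.6 and 84.8 CPM in Sox4. The groups were far apart relative to their spread (0.46, SE 0.08, adjusted p = 0.00491). Ddx21, a helicase that couples transcription and snoRNA work, rose by 0.41 (adjusted p = 0.0163), and Nolc1, the chaperone of snoRNPs, by 0.38 (adjusted p = 0.0331). Ddx21 lost its call without EV 1 (0.33) or EV 2 (0.35), and Nolc1 without EV 1, EV 3, Sox4 1 or Sox4 2 (0.29 to 0.43, adjusted p = 0.0545 to 0.125).

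Npm1 and Ncl encode the most abundant proteins of the nucleolus. Npm1 was at 74.7, 97.3 and 97.6 CPM in EV and 118, 100 and 110 CPM in Sox4. Every Sox4 library lay above EV, yet Npm1 did not pass (0.28, SE 0.14, adjusted p = 0.0943), and 24.3% of its 50-base stretches are shared with other annotated genes. Ncl was at 162, 169 and 173 CPM in EV and 180, 165 and 169 CPM in Sox4. The libraries of both groups were mixed and the value was the closest to 0 of all members (0.02, SE 0.05, adjusted p = 0.864), with a sign that turned without EV 1 or without Sox4 1 (-0.02 in both).

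Levels were also set per length, taken as that of all annotated exons of a gene merged (10188 bases for Ncl, 2665 for Npm1). Without length, Ncl had a mean of 168 CPM in EV and Npm1 89.9 CPM. Per length, Npm1 was the most abundant member in both groups, at 33.7 CPM per kb in EV and 41.1 CPM per kb in Sox4. Nop10 stood next in EV at 28.3 CPM per kb and was the fifth in Sox4 at 13.4 CPM per kb, where Ncl (16.8), Nhp2 (16.4) and Mybbp1a (15.5) stood above it. Rrp1b was the least abundant in both, at 0.956 and 1.55 CPM per kb. The summed level of the 45 genes was 1156, 1221 and 1222 CPM in EV and 1458, 1328 and 1406 CPM in Sox4, a 1.16-fold difference between means with no overlap between groups. 

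RefSeq promoter windows of 250 bases before the start were matched for 39 of the 45 genes, and motifs were searched on both strands. The E-box letters CACGTG were in 2 of the 39 (5.13%, Rrn3 and Nop2, printed above, both higher) and in 10.04% of the 9664 tested genes with a window. The ETS letters CCGGAAG were in 10 of the 39 (25.6%) against 15.9% of all genes. Of these 10 genes 4 were higher (Gar1, Nip7, Nop2 and Nolc1), 1 was lower (Emg1) and 5 did not pass. The letters CCAAT were in 14 of the 39 (35.9%) against 41.2% of all genes. The consensus motifs of NRF1 and STAF were in 0 of the 39 windows and in 1.88% and 0.755% of all genes. These are counts of letters in a window and no account of binding.

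**Figure D3:**
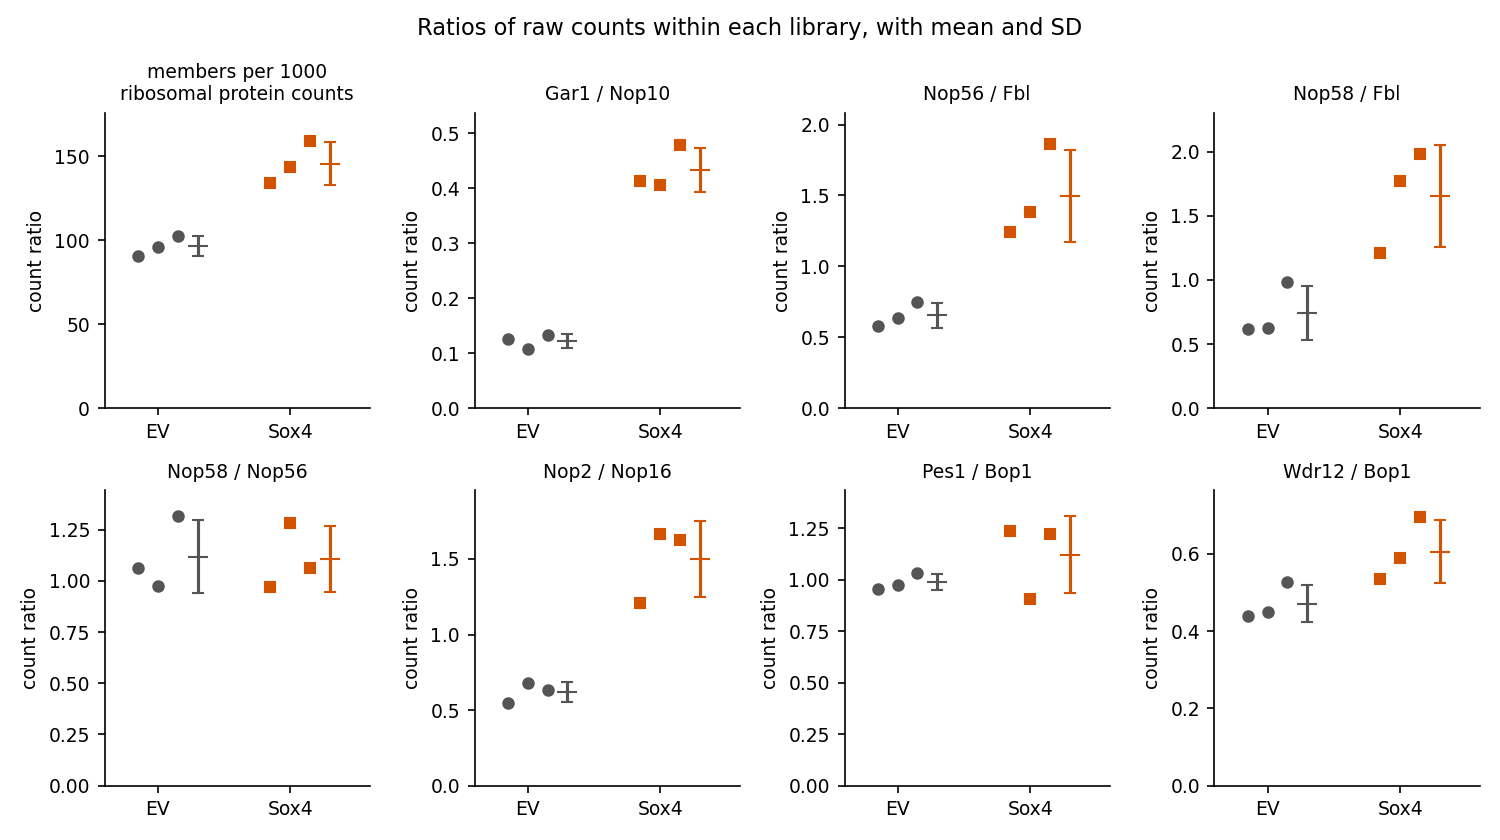
Ratios of raw counts within each library for the summed members per 1000 cytosolic ribosomal protein counts and for 7 pairs of genes chosen after their values were seen (linear axes from 0), with the mean and SD of 3 libraries. The groups are apart for the members against ribosomal proteins and for Gar1/Nop10, Nop56/Fbl, Nop58/Fbl, Nop2/Nop16 and Wdr12/Bop1, and overlap for Nop58/Nop56 and Pes1/Bop1.

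The rest of the pathway was described by a list of 130 further ribosome biogenesis genes, of which 129 were tested. In it 39 were higher (30.2%) and 11 lower (8.53%), with a median of 0.18, beside 29.0% and 26.0% of all genes. By role, 5 of 11 further polymerase I genes, 12 of 46 small subunit factors, 14 of 43 large subunit factors, 1 of 9 snoRNP assembly factors and 7 of 20 RNA trimming genes were higher, and 0, 3, 3, 1 and 4 were lower. The largest rises were Taf1c, a subunit of the promoter factor that works with Ubtf and Rrn3 (2.17, from 1.33 ± 0.275 to 6.01 ± 0.943 CPM, adjusted p = 0.000144), Pop4, a subunit of RNase P and RNase MRP (1.41, adjusted p = 1.14e-05), and the exosome partner Mphosph6 (1.36, adjusted p = 0.00265). The largest falls were Rpp40, another subunit of RNase P and RNase MRP (-1.26, adjusted p = 0.00576), and the exosome subunits Exosc5 (-1.20, adjusted p = 0.00135) and Exosc7 (-0.86, adjusted p = 0.00146). With library size alone 96 of the 129 were higher and 2 lower.

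The ribosomal proteins themselves, the cargo of these factors, had more lower than higher calls under TMM scaling. Of 76 tested cytosolic ribosomal protein genes 1 (Rpl13a) was higher and 36 were lower, with a median of -0.34, and of 76 mitochondrial ones 1 (Mrps6) was higher and 43 were lower, with a median of -0.42. Their calls depend on the scaling, since with library size alone 11 and 14 were higher and 0 and 6 lower. In that setting 51.0% of all genes were higher and 12.8% lower. The distance of the cytosolic median from that of all genes hardly moved, at -0.377 under TMM and -0.376 with library size alone. The number of lower cytosolic genes also moved with single libraries, to 22 without EV 2, 22 without Sox4 2, 23 without Sox4 3 and 58 without Sox4 1, and that of lower mitochondrial genes to 28 without Sox4 2. The median longest transcript of the cytosolic genes was 1100 bases against 3226 for the members. The median log2 fold change of all genes was -0.34 for transcripts up to 1000 bases. For those of over 1000 and up to 2000 bases it was -0.19. Within the cytosolic genes the median was -0.33 for the 38 shorter and -0.34 for the 38 longer ones. The part of length in this contrast was not tested. Within each library, the 45 members together had 90.8, 95.7 and 102 counts per 1000 cytosolic ribosomal protein counts in EV and 134, 143 and 159 in Sox4. All Sox4 libraries lay above all EV libraries (1.51-fold between the means). Many ribosomal protein genes have near-identical copies elsewhere in the genome, so their counts are uncertain.

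**Figure D4:**
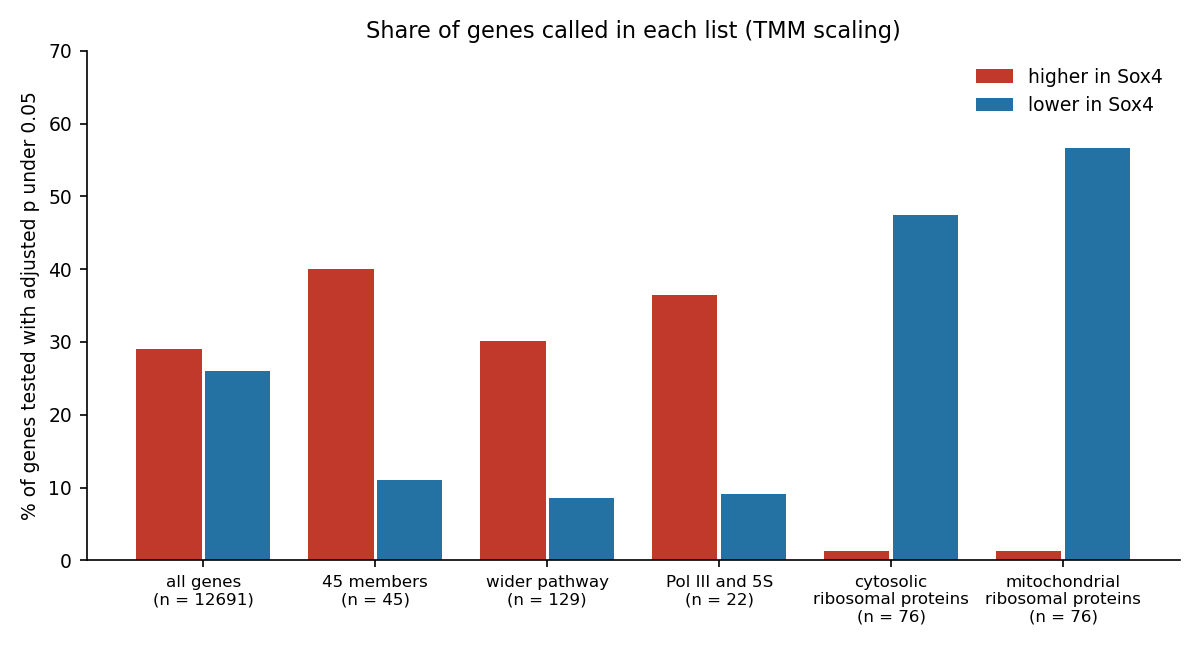
Share of tested genes with an adjusted p under 0.05 that were higher (red) or lower (blue) in Sox4, for all genes, the 45 members, the wider pathway list, RNA polymerase III genes and the cytosolic and mitochondrial ribosomal proteins. Under TMM scaling, lower calls make up 26.0% of all genes and 11.1% of the members. They make up 8.53% of the wider list and 47.4% of the cytosolic ribosomal proteins. With library size alone none of the cytosolic ribosomal proteins was lower, beside 12.8% of all genes. The distance of their median from that of all genes was then -0.376.

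RNA polymerase III makes the smallest ribosomal RNA of the large subunit. Of 22 genes for its subunits and factors, 8 were higher (36.4%, beside 29.0% of all genes) and 2 lower (9.09%, beside 26.0%), with a median of 0.24. Of 12 tested genes that host snoRNAs without coding for a protein, 5 were higher (41.7%) and 0 lower. Myc was at 7.94, 4.86 and 3.27 CPM in EV and 45.2, 44.8 and 39.9 CPM in Sox4, far apart (3.02, SE 0.37, adjusted p = 2.03e-05), and 7 of 12 tested genes of the MYC and MAX network were higher (58.3%) and 2 lower (16.7%). All 18 proliferation genes were higher, with a median of 2.91. The part of MYC or of proliferation in the members' values was not tested.

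Across all genes the fold change moved with transcript length. Spearman's rho between the longest annotated transcript and the log2 fold change was 0.21 over 12440 genes and 0.27 over the 45 members, a description across genes that share the same 6 libraries. Among transcripts of over 2000 and up to 4000 bases the median was 0.25 for 23 members and 0.02 for all genes. Among those over 4000 bases it was 0.41 for 15 members and 0.23 for all genes, and among those of over 1000 and up to 2000 bases -0.03 for 7 members and -0.19 for all genes. The shortest members by this measure include Nop10 and Nop16, which fell, and Gar1, which rose. Emg1 and Nat10, which also fell, have 4329 and 4543 bases. The longest annotated transcript need not be the one expressed, and which transcripts were expressed was not examined. The part of length in single members' values was not tested.

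**Figure D5:**
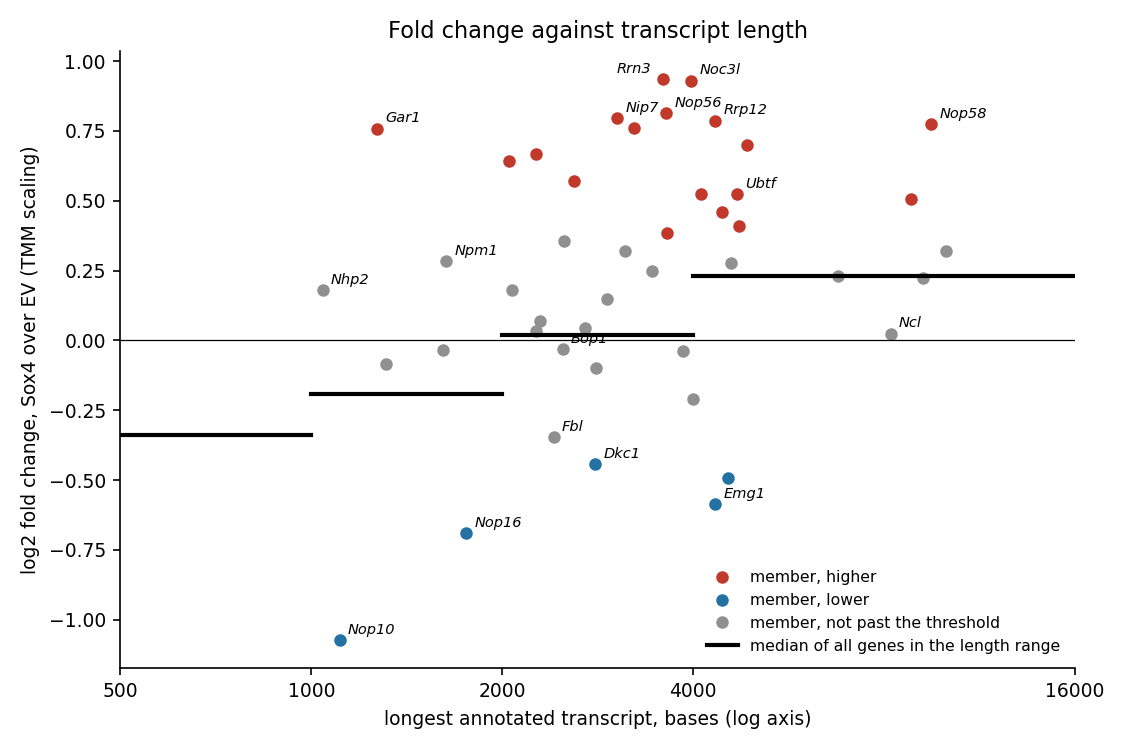
Log2 fold change in Sox4 over EV (TMM scaling) against the longest annotated transcript (GENCODE M21, log axis) for the 45 genes, with black bars at the median of all tested genes in 4 length ranges. The bars rise from -0.34 at up to 1000 bases to 0.23 above 4000 bases, and Nop10 lies lowest at the short end.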

How the data were processed

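Isolated mouse hepatocytes were profiled by RNA-seq in 3 EV and 3 Sox4 libraries, named here by the group and replicate number of their labels. The authors deposited raw counts per gene, made per their methods and processing notes by alignment to GRCm39 with STAR and counting with featureCounts 2.0.1. Annotation release, strand setting and the treatment of reads with several matches were not given in the sources used here. Another deposited table, of normalized values, was not used. Ribosomal RNA itself was not analysed here.

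Counts were fitted with edgeR 4.0.16 in R 4.3.3, after filterByExpr (minimum count 10, minimum total 15) and TMM scaling. The comparison was the robust quasi-likelihood F test of Sox4 against EV without other terms. Adjusted p-values are Benjamini-Hochberg values over 12691 genes (threshold 0.05). CPM values use the TMM-scaled sizes, and each standard error (SE) was taken from the log2 CPM (prior count 2) of the 2 groups. A count of 3 corresponded to 0.150 to 0.231 CPM, a floor that covers counting error only. Libraries of the same group varied beyond counting error. The labels do not tie libraries to mice, but the study states 3 animals per group for these data.

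The members, the other lists, the rule for the genes named and the alternatives were chosen with earlier results of these data known. Values in every library are given for the largest rise, the largest fall and the most abundant gene of each role, for Ncl, Npm1, Fbl, Dkc1, Ubtf, Polr1a and Rrn3, for the 3 largest rises and falls and for the 3 members closest to 0. In the wider list, the 3 largest rises and falls are named. Nhp2 and Nop2 in every library, the pairs in ratios and single genes named from the related lists other than Myc were chosen after their values were seen. Of the lists' entries, 5 were not found in the count table under the names searched. Length, shared 50-base stretches, overlaps and snoRNAs come from GENCODE M21 (GRCm38), which is not the build of the counts. Coordinates are therefore printed only for the RefSeq promoter windows (GRCm38.p6). Alternatives were other scalings, filters and tools (DESeq2 1.42.0, limma 3.58.1), the replicate number as a block and each library left out.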

Additional observations from a re-analysis of the deposited data

How the results depend on the processing

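Over 15 alternatives, 12 of the 18 members called higher (Rrn3, Ubtf, Nop56, Nop58, Rrp12, Wdr75, Utp20, Noc3l, Nip7, Rrp1b, Nop2 and Mybbp1a) and 1 of the 5 called lower (Nop10) kept their call throughout. Scaling moved the counts most. With library size alone 35 members were higher and 1 lower, 96 and 2 of the wider list, the medians were 0.75 and 0.65, and 79.9% of called genes were higher, against 52.7% under TMM. The wider median was 0.23 with upper-quartile scaling and 0.22 with no filter. Leaving out libraries in turn gave 13 to 17 members higher and 3 to 5 lower (3 without EV 2 or Sox4 2), and 30 to 39 higher and 7 to 14 lower in the wider list (7 without Sox4 2 or 3). Between 5937 and 8092 genes changed over all alternatives.

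Signs turned with library size alone for Polr1b (0.26), Polr1c (0.39), Fbl (0.12), Dkc1 (0.027), Rrp9 (0.43), Bysl (0.43), Bop1 (0.44) and Noc2l (0.37), and for Rrp9, Bysl and Bop1 with upper-quartile scaling (0.019, 0.017 and 0.021) and no filter (0.0064, 0.0044 and 0.0091). Leaving out libraries turned Rrp9 (-0.20 to 0.052), Nop14 (-0.026 to 0.086), Ncl (-0.019 to 0.055), Polr1c (-0.26 to 0.050), Nhp2 (-0.11 to 0.51), Ddx18 (-0.043 to 0.085), Tcof1 (-0.015 to 0.43), Bysl (-0.19 to 0.052), Ltv1 (-0.13 to 0.17) and Bop1 (-0.087 to 0.053). The cause was not tested.

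The log2 CPM of each gene was taken as a deviation from its group mean, and these deviations were correlated between EV and Sox4 libraries. The correlations of the deviations were 0.27, -0.09 and 0.13 for the same replicate numbers and -0.27 to 0.18 for different ones. Whether replicate numbers pair the libraries cannot be told from 3 libraries per group. With the replicate block 7362 genes changed, against 6990 without it, and 18 members were higher and 6 lower, Fbl being added. Of the 22 members not past the threshold, 15 passed under at least 1 alternative. Each member had at least 46 counts in every library, and the spread between the 3 libraries of a group limits the precision.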
